A study of Mus musculus with 12 samples.

Results

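The mitochondrial ribosomal protein genes were the rows of the count table whose mouse symbol starts with Mrpl or Mrps and a number. There were 78 of them among 13124 genes, 49 named Mrpl and 29 named Mrps, and all 78 were measured in all 12 kidneys. RNA came from whole, saline-flushed kidneys of male C57BL/6 mice, all taken 24 h after surgery, in 4 groups of 3 kidneys. Kidneys 1 to 3 were from sham surgery, and these mice had no antibody. Kidneys 4 to 12 were from mice with ischaemia-reperfusion injury (IRI), in which blood flow to one kidney is stopped and restored, and each mouse had received a monoclonal antibody 24 h before. That antibody was an isotype control for kidneys 4 to 6, an antibody against the receptor of the granulocyte growth factor G-CSF for kidneys 7 to 9 (anti-G-CSFR, labelled VR81), and an antibody against complement component C5 for kidneys 10 to 12 (anti-C5, labelled BB5.1). The labels give no age and do not name the side that was harvested. Since sham mice had no antibody, isotype against sham joins injury and antibody, and the 3 comparisons with the isotype group share its kidneys.

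Mitochondria carry their own ribosome, the mitoribosome, which translates the few proteins encoded by mitochondrial DNA, all of them subunits of the respiratory chain and ATP synthase. Its RNA comes from mitochondrial DNA, but every one of its proteins is encoded in the nucleus, made in the cytosol and imported. Some of these proteins descend from bacterial ribosomal proteins and others exist only in mitochondria. The proximal tubule of the kidney is rich in mitochondria and draws most of its energy from oxidative phosphorylation.

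By position in the mitoribosome, 51 members encode large-subunit proteins, among them Mrps30 and Mrps18a in spite of their small-subunit names, and 26 encode small-subunit proteins. The product of the last, Mrps36, is a component of the 2-oxoglutarate dehydrogenase complex and is not part of the mitoribosome structure. A bacterial counterpart is known for 46 of the proteins, and 31 are specific to mitochondria. Counted among the 31 are the products of Mrps18a and Mrps18b, although they are relatives of the bacterial protein S18.

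Levels are given as CPM, in which the counts of a library are brought to one common total. Each library held 13200930 to 16324215 counts, of which 0.358% to 0.534% fell on the members. In every library the tissue markers of kidney were present: 15 proximal tubule genes summed to 46038 to 50214 CPM in sham kidneys and 11526 to 18682 in isotype kidneys. The 14 tubule injury genes summed to 1648 to 2625 CPM in sham and 34982 to 40048 in isotype kidneys. Kidneys 9 and 11 stood apart from their groups, at 12370 and 14957 CPM of these injury genes against 1885 to 2273 in the other 4 antibody-treated kidneys. The 11 neutrophil genes summed to 8.84 to 11.3 CPM in sham, 57.7 to 146 in isotype and 2.39 to 3.5 in anti-G-CSFR kidneys. In the anti-C5 group they summed to 133 CPM in kidney 11 and to 8.96 and 14.1 in kidneys 10 and 12. In RNA from whole tissue, fewer cells of a type and less RNA per cell cannot be told apart. The part of these shifts in cell markers in the changes below was not tested.

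What injury does to these transcripts was asked by setting the isotype group against sham. Of the 78 members, 23 fell, 6 rose and 49 did not pass the test (edgeR quasi-likelihood test, Benjamini-Hochberg (BH) adjusted p below 0.05 over all genes). Among all 13124 genes, 62.8% passed, 32.1% higher and 30.7% lower, against 37.2% of the members. The members' median log2 change was −0.18, beside 0.03 for all genes, and their called changes ran from −1.28 for Mrps36 to 1.54 for Mrpl33. The isotype and sham kidneys did not overlap for 19 members that were lower and 10 that were higher, against 33.7% and 35.5% of all genes (69.2% either way). With library totals in place of TMM factors (edgeR's trimmed-mean scaling), 13 members rose and 8 fell, the members' median was 0.018, and the median of all genes moved to 0.23. Without kidney 4 the counts were 44 falling and 5 rising. In the fits without sham kidney 3, isotype kidney 5 or isotype kidney 6, 15 or 16 members passed. The shares of all genes called in these fits are not given here. Whether these shifts are particular to the members was therefore not assessed.

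**Figure D1:**
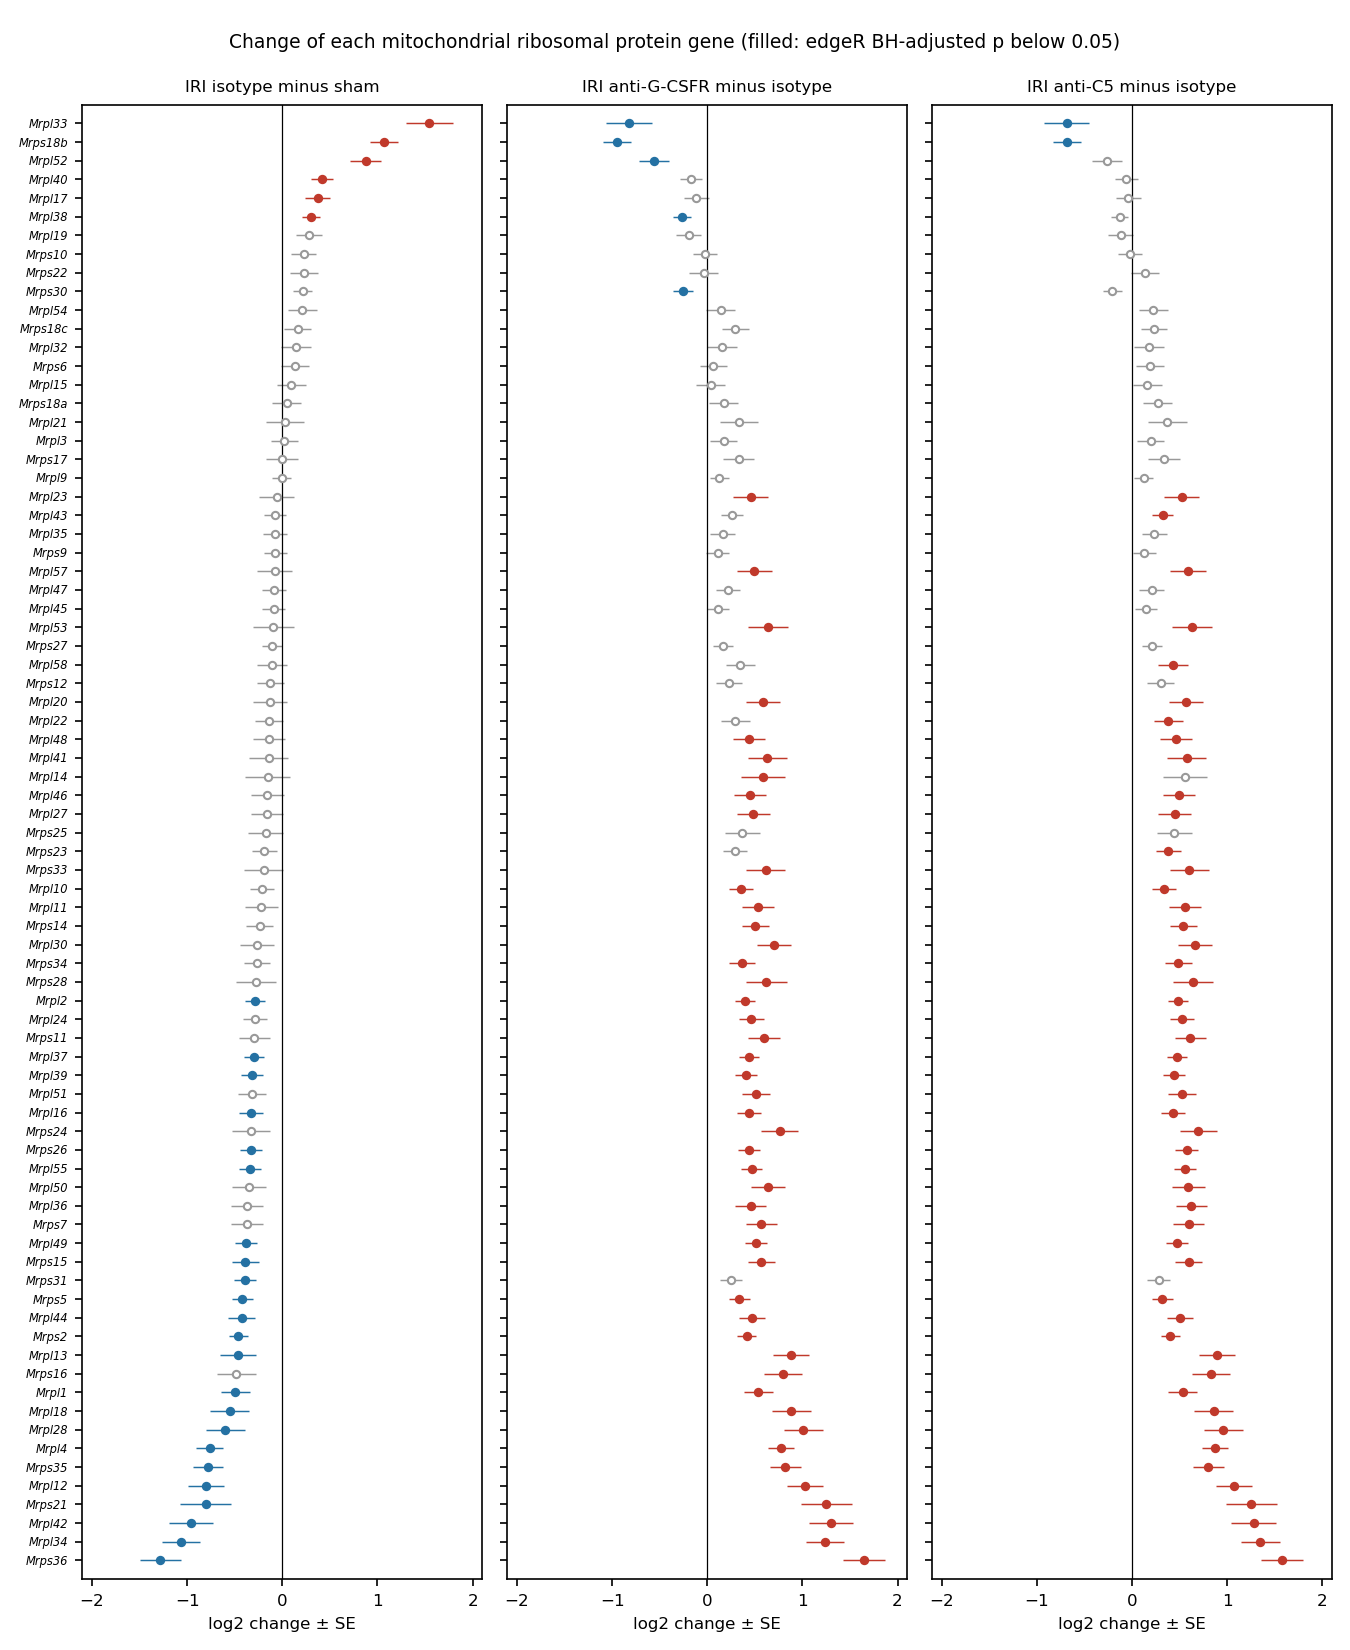
Log2 change ± SE of each of the 78 members (rows, ordered by the change in isotype against sham) in the 3 comparisons; filled points passed the edgeR test (BH-adjusted p below 0.05), red higher and blue lower. The left panel spreads from −1.28 (Mrps36) to 1.54 (Mrpl33), and most points of the middle and right panels, which share the isotype kidneys with the left one, lie above 0.

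The 5 members with the largest falls were Mrps36, Mrpl34, Mrpl42, Mrps21 and Mrpl12. Mrps36 (Entrez 66128, GRCm38 chromosome 13, 100735955 to 100744659, minus strand), the dehydrogenase component named above, stood at 43.2, 48.8 and 50.1 CPM in the sham kidneys and at 26.9, 14.8 and 16.6 CPM in isotype kidneys 4, 5 and 6. It stood at 64.3, 66.9 and 51.7 CPM in the anti-G-CSFR kidneys and at 58.0, 45.3 and 70.7 CPM in the anti-C5 kidneys. All 3 isotype kidneys were below every other kidney. The change against sham was −1.28 ± 0.22 (SE) on the log2 scale, 2.43-fold lower (edgeR adjusted p = 0.000355).

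Mrpl34 (Entrez 94065, chromosome 8, 71464959 to 71465747, plus strand) encodes bL34m, a small protein of the large subunit with a bacterial counterpart. Its level was 42.2, 49.6 and 59.7 CPM in sham, 28.7, 22.9 and 20.6 in isotype, 60.2, 62.8 and 47.3 in anti-G-CSFR and 59.9, 46.8 and 77.5 in anti-C5 kidneys. Again no isotype kidney reached any of the other 9. The gene fell by 1.07 ± 0.20 on the log2 scale (edgeR adjusted p = 0.000686).

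Mrpl42 (Entrez 67270, chromosome 10, 95480805 to 95501940, minus strand) encodes mL42, a large-subunit protein without a bacterial counterpart. It measured 117, 137 and 137 CPM in sham, 96.3, 51.8 and 53.1 in isotype, 177, 182 and 137 in anti-G-CSFR and 157, 132 and 199 in anti-C5 kidneys. Kidney 4 was the highest of the isotype group but still below every kidney of the other groups. The change was −0.96 ± 0.23 (edgeR adjusted p = 0.00351).

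Mrps21, which encodes the small-subunit protein bS21m, had 65.9, 85.0 and 79.7 CPM in sham and 61.8, 35.7 and 34.4 CPM in isotype kidneys. Kidney 4 lay close under the lowest sham kidney. The change of −0.80 ± 0.27 passed the test (edgeR adjusted p = 0.0197), and it did not pass without kidney 2, 3, 5 or 6 (adjusted p up to 0.081). Mrpl12, which encodes bL12m, the factor-binding protein of the ribosomal stalk, had 201, 215 and 232 CPM in sham and 160, 106 and 106 CPM in isotype kidneys, with no overlap. It fell by 0.80 ± 0.19 (edgeR adjusted p = 0.00312).

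The members with the largest rises were Mrpl33, Mrps18b and Mrpl52. Mrpl33 (Entrez 66845, chromosome 5, 31596935 to 31664384, plus strand) encodes bL33m, a small large-subunit protein with a bacterial counterpart. It measured 28.1, 34.9 and 32.3 CPM in sham, 129, 71.8 and 77.2 in isotype, 46.3, 54.8 and 56.4 in anti-G-CSFR and 40.6, 75.2 and 56.7 in anti-C5 kidneys. Every injured kidney lay above every sham kidney, and kidney 4 was the highest. The rise against sham was 1.54 ± 0.24 on the log2 scale, 2.92-fold (edgeR adjusted p = 0.000217).

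Mrps18b (Entrez 66973, chromosome 17, 35910379 to 35916389, minus strand) encodes mS40, one of 3 mammalian relatives of the bacterial protein S18. Its level was 41.2, 38.0 and 47.3 CPM in sham, 97.7, 85.0 and 82.3 in isotype, 48.8, 47.2 and 41.4 in anti-G-CSFR and 43.4, 66.6 and 54.3 in anti-C5 kidneys. The isotype kidneys stood above all 9 others, and kidney 11 was the next highest. Mrps18b rose by 1.07 ± 0.15 (edgeR adjusted p = 8.72e-05). The other relatives of S18 did not pass the test. Mrps18c, a small-subunit member like Mrps18b, stood at 32.1 ± 1.25 CPM in sham and 35.9 ± 4.21 in isotype kidneys (SD, n = 3). Mrps18a, whose product lies in the large subunit, stood at 60.0 ± 5.80 and 61.9 ± 12.3.

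Mrpl52 (Entrez 68836, chromosome 14, 54426909 to 54429756, plus strand) encodes mL52, a large-subunit protein found only in mitochondria. It measured 18.5, 25.4 and 25.2 CPM in sham and 49.4, 38.5 and 39.0 CPM in isotype kidneys, without overlap, a rise of 0.88 ± 0.16 (edgeR adjusted p = 0.000602). Smaller rises were measured for Mrpl40 (0.42 ± 0.12, edgeR adjusted p = 0.00845) and Mrpl17 (0.37 ± 0.14, edgeR adjusted p = 0.0311). Mrpl40 and Mrpl38, the sixth member to rise (0.30 ± 0.09, edgeR adjusted p = 0.0145), encode proteins of the central protuberance of the large subunit. Of the 7 members at this site 2 rose and 2 fell, the latter being Mrpl18 (−0.55 ± 0.20, edgeR adjusted p = 0.0308) and Mrpl55 (−0.34 ± 0.11, edgeR adjusted p = 0.0206), both calls that were lost with library totals. The call of Mrpl17 was lost when any single sham kidney or kidney 4 was left out, and that of Mrpl38 without kidney 1. The call of Mrpl18 was also lost without kidney 2, 3, 5 or 6, and that of Mrpl55 without kidney 1, 3, 5 or 6. Tested against a 1.2-fold change, the calls of Mrpl17, Mrpl18, Mrpl38, Mrpl40 and Mrpl55 were lost.

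**Figure D2:**
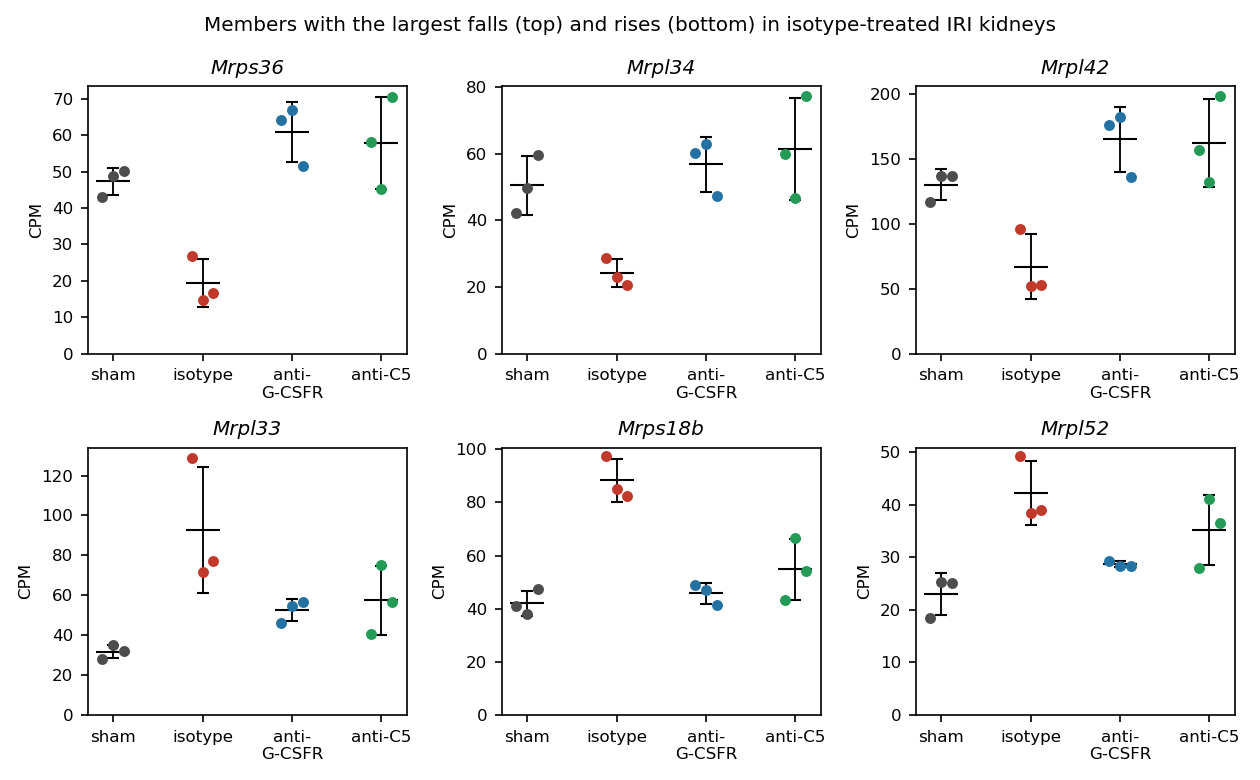
CPM (linear axis from 0) of 3 members with large falls (top) and the 3 with the largest rises (bottom) in isotype against sham; each point is a kidney, the line is the group mean and the bar ± SD (n = 3). Isotype kidneys lie below all others in the top row, and the antibody-treated kidneys of Mrpl33 and Mrpl52 lie between or among the sham and isotype values.

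The stretch of 150 bases before the RefSeq start is shown for 3 of the falling members and for the rising Mrpl52, picked from the members with large changes. These windows hold no annotated exon. The windows of other members with large changes, among them Mrpl33 and Mrps18b, are not shown. Capitals mark a match to the letters CCGGAAG, the core site of the ETS factor GABPA (also called NRF2), on either strand; sequences are RefSeq GRCm38.p6, 5′ to 3′ on the strand of the gene.
Mrps36 (chr13:100744660-100744809, minus strand): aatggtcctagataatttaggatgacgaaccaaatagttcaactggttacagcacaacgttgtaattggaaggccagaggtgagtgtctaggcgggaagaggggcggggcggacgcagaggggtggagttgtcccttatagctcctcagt
Mrpl34 (chr8:71464776-71464925, plus strand): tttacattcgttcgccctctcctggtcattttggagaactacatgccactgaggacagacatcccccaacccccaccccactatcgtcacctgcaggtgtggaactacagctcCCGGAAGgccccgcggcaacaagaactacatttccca
Mrpl42 (chr10:95501950-95502099, minus strand): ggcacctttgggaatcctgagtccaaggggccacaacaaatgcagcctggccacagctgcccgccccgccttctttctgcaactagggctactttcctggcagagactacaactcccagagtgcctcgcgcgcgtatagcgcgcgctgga
Mrpl52 (chr14:54426759-54426908, plus strand): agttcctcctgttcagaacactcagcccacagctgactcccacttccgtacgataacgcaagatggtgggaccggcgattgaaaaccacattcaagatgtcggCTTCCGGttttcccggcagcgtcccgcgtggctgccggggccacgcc
The match begins 37 bases before the start in Mrpl34, which fell, and, on the opposite strand, 47 bases before it in Mrpl52, which rose. Mrps36 and Mrpl42 hold no match in these windows.

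Grouped by subunit, 15 of the 51 large-subunit members fell and 5 rose in isotype against sham (median −0.14), and of the 26 small-subunit members 7 fell and 1 rose (median −0.25). Among members with a bacterial counterpart 14 of 46 fell and 2 rose (median −0.23), and among those specific to mitochondria 8 of 31 fell and 4 rose (median −0.14). Of all genes, 30.7% fell and 32.1% rose. The falling share of each of these groups was near that background, and the rising share was under it. With library totals 4 large-subunit members fell and 8 rose (median 0.056), 3 small-subunit members fell and 5 rose (median −0.053), and the medians were −0.029 with and 0.056 without a bacterial counterpart. The difference between such groups of genes was not tested. Of 5 proteins of the stalk and its base, which recruits the translation factors, Mrpl12 alone passed the test. Its anchor Mrpl10 stood at 97.1, 100 and 96.4 CPM in sham and 99.4, 74.2 and 79.3 CPM in isotype kidneys, so that the groups overlapped through kidney 4. The log2 difference of Mrpl10 was −0.21 ± 0.13 and did not pass the test (edgeR adjusted p = 0.16).

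Of 6 proteins at the decoding site and along the mRNA path, Mrps5 alone fell, with 57.4, 56.3 and 59.3 CPM in sham and 51.6, 39.7 and 38.0 CPM in isotype kidneys (log2 change −0.42 ± 0.11, edgeR adjusted p = 0.00556), a call that was lost with library totals. Mrps12, the counterpart of the bacterial accuracy protein S12, had overlapping values of 30.8 ± 3.84 and 28.2 ± 2.23 CPM (SD, n = 3). At the tunnel exit 1 of 6 members, Mrpl17, rose. Mrpl45, which holds the ribosome to the inner membrane, was measured at 57.6 ± 4.33 CPM in sham and 54.0 ± 6.10 in isotype kidneys and did not pass the test.

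Mrpl58, an integral large-subunit protein that keeps the fold of a release factor, stood at 46.2 ± 5.83 CPM in sham and 42.9 ± 7.99 in isotype kidneys. Mrps27, a small-subunit protein of the pentatricopeptide repeat class, stood at 37.4 ± 3.10 and 34.7 ± 4.96 CPM. Mrps30 stood at 34.7 ± 2.03 and 40.2 ± 0.789 CPM (SD, n = 3), and none of these 3 passed the test. The smallest changes belonged to Mrps17, Mrpl9 and Mrpl3, at −0.00 ± 0.17, −0.01 ± 0.10 and 0.02 ± 0.14 on the log2 scale (edgeR adjusted p = 0.982, 0.966 and 0.905). The sign of these 3 changed with the scaling or with a kidney left out.

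**Figure D3:**
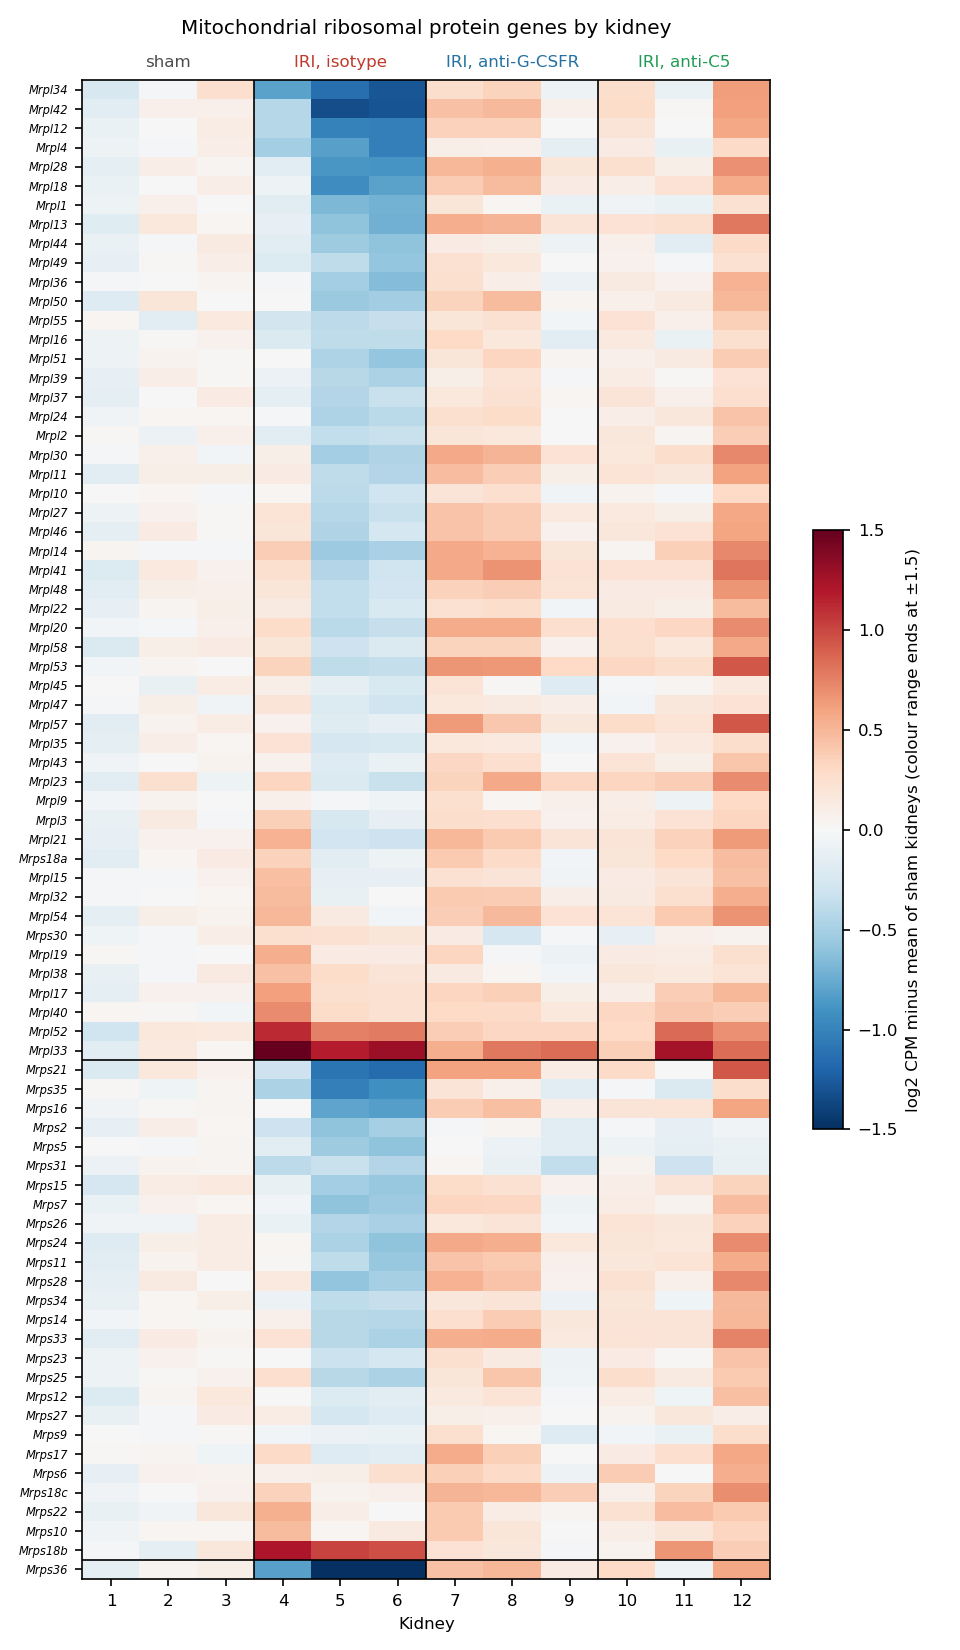
Log2 CPM of each member (rows, by subunit and then by change) in each of the 12 kidneys (columns) minus the mean of the sham kidneys; blue is lower, red higher, and the colour range ends at ±1.5. Isotype kidneys 5 and 6 are mostly blue, kidney 4 is mixed, and kidney 12 is the reddest antibody-treated kidney.

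The isotype kidneys differed among themselves. The mean log2 level of the 78 members, set against the sham mean, was 0.11 in kidney 4 and −0.34 in both kidneys 5 and 6, while the sham kidneys ran from −0.10 to 0.06. Kidney 4 held the highest isotype value for 76 of the 78 members, above all sham kidneys for 39 of them and below all sham kidneys for 19. Kidneys 5 and 6 were both below all sham kidneys for 59 members. These orders of kidneys were not counted over all genes. Cytosolic ribosomal protein genes were also highest in kidney 4, at 0.98 against 0.38 and 0.47 in kidneys 5 and 6, and the part of this in the members' values was not tested.

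Anti-G-CSFR against isotype asked whether blocking the receptor before IRI changed these levels. In this comparison 46 members rose and 5 fell, against 63.5% of all genes in either direction (31.5% higher, 32.0% lower). The 51 called members were 65.4% of all members, a share near that background, with most of them on the higher side. The members' median was 0.44, and that of all genes −0.02. For 33 members the anti-G-CSFR kidneys were all above the isotype kidneys, against 33% of all genes, and for 5 they were all below, against 34.1% (67.2% either way). Large-subunit members rose in 31 of 51 and small-subunit members in 14 of 26 cases. With library totals, 18 members rose and 8 fell, and the medians were 0.22 for the members and −0.23 for all genes. Without kidney 4 the call covered 63 members and without kidney 5 it covered 33. The share of all genes called in these fits is not given here.

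The largest rises under anti-G-CSFR were those of Mrps36 (1.65 ± 0.22), Mrpl42 (1.3 ± 0.23), Mrps21 (1.25 ± 0.27), Mrpl34 (1.24 ± 0.20) and Mrpl12 (1.03 ± 0.19), with edgeR adjusted p between 7.33e-05 and 0.00166. These were also the 5 that fell most in the isotype group, whose kidneys enter both comparisons. Mrps21 measured 116, 116 and 82.6 CPM and Mrpl12 273, 275 and 214 CPM in kidneys 7, 8 and 9, in each case above all isotype kidneys. The 5 falls were Mrps18b (−0.95 ± 0.15), Mrpl33 (−0.82 ± 0.24), Mrpl52 (−0.56 ± 0.16), Mrpl38 (−0.26 ± 0.09) and Mrps30 (−0.26 ± 0.10), with edgeR adjusted p between 0.000206 and 0.0464. Mrpl52 showed close replicates of 29.4, 28.3 and 28.4 CPM under anti-G-CSFR. Mrps30 measured 40.8, 40.4 and 39.3 CPM in isotype and 37.9, 29.1 and 33.8 CPM in anti-G-CSFR kidneys, apart from each other. Mrpl38 lost its call in 7 of 23 alternatives and Mrps30 in 14, among them the fits without kidney 4, 5 or 8.

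Anti-C5 against isotype, the same question for complement, gave 49 members that rose and 2 that fell, against 60.3% of all genes (30.5% higher, 29.8% lower). Their share, again 65.4%, was near the background, and 49 of the 51 were higher. The median was 0.47, beside −0.01 for all genes. The groups did not overlap for 39 members that were higher, against 31.7% of all genes, and 2 that were lower, against 31.0% (62.7% either way). With library totals, 30 rose and 5 fell, with medians of 0.28 for the members and −0.19 for all genes. Without kidney 4 the call covered 62 members, without kidney 5 it covered 33 and without kidney 12 it covered 31. For these fits, too, the share of all genes called is not given here. Of the 26 small-subunit members 15 rose, and of the 51 large-subunit members 33.

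Mrps36 (1.57 ± 0.22), Mrpl34 (1.35 ± 0.20), Mrpl42 (1.28 ± 0.23), Mrps21 (1.25 ± 0.27) and Mrpl12 (1.07 ± 0.19) rose most under anti-C5, with edgeR adjusted p between 0.000124 and 0.00185. Mrps21 measured 93.4, 76.0 and 145 CPM in kidneys 10, 11 and 12, and Mrpl12 measured 246, 216 and 321 CPM. Kidney 12 was the highest and kidney 11 the lowest for both. Mrps18b fell by 0.69 ± 0.15 (edgeR adjusted p = 0.00178) and Mrpl33 by 0.69 ± 0.24 (edgeR adjusted p = 0.0256). The anti-C5 values of Mrpl33 overlapped with isotype through kidney 11, and its call was lost without kidney 4, 10 or 12. Mrpl52, at 28.0, 41.1 and 36.6 CPM, overlapped with isotype and did not pass the test (−0.26 ± 0.16, edgeR adjusted p = 0.168).

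In all, 45 members rose in both comparisons with isotype and 2 fell in both, with the isotype kidneys common to the pair. Of all genes, 31.5% rose with anti-G-CSFR and 30.5% with anti-C5, and the share that rose in both was not counted. Of the 23 members that fell in isotype against sham, 22 rose in both antibody comparisons. Low isotype values favour a call in each of these comparisons, so the 22 are not separate evidence of a reversal. The exception was Mrps31, a small-subunit protein, with 35.6, 39.1 and 38.8 CPM in sham, 28.8, 29.9 and 27.8 in isotype, 38.6, 35.1 and 29.3 in anti-G-CSFR and 39.3, 30.5 and 35.1 in anti-C5 kidneys. Kidney 9 lay within the isotype range and kidney 11 just above it. For 20 members no comparison passed the test, and the share of all genes without a call was not counted. A test for any difference among the 4 groups called 46 of 78 members, against 61.0% of all genes. Without kidneys 9 and 11, 30 members were called for isotype against sham, 56 for anti-G-CSFR against isotype and 55 for anti-C5 against isotype. The shares of all genes called in that fit are not given here.

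Against sham, no member passed the test under either antibody (edgeR, 0.0% of the 13124 genes called in both comparisons). DESeq2 and limma-voom also called 0 members (9 and 28 genes with DESeq2, 0 with limma-voom). At an unadjusted p below 0.05, edgeR gave 10 members for anti-G-CSFR and 15 for anti-C5, all higher, of 778 and 1487 genes. The median member change was 0.20 for anti-G-CSFR and 0.27 for anti-C5, against −0.01 and 0.01 for all genes. In the same order, the medians were 0.55 and 0.55 for 81 cytosolic ribosomal protein genes. They were 0.31 and 0.24 for 81 nuclear respiratory chain and ATP synthase genes, and 0.04 and 0.01 for 14 mitochondrial translation factors. The difference between these lists was not tested. Under anti-G-CSFR 27 members lay above all sham kidneys and 0 below, against 9.47% and 8.9% of all genes (18.4% either way). Under anti-C5 41 lay above and 1, Mrps5, below, against 9.36% and 8.59% (18% either way). In both groups the mean CPM was above that of sham for 74 members. The largest differences from sham belonged to Mrpl33, at 0.72 ± 0.24 in the anti-G-CSFR and 0.86 ± 0.24 in the anti-C5 group (edgeR adjusted p = 0.807 and 0.371).

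The antibody groups were also set against each other. No member passed (edgeR, 0.0% of genes called; 0 members and 207 genes at an unadjusted p below 0.05; DESeq2 and limma-voom also called 0 members), and the median member difference was −0.03. Single differences of anti-G-CSFR minus anti-C5 ran from −0.30 ± 0.16 for Mrpl52 to 0.07 ± 0.21 for Mrps36. The groups did not overlap for 2 members, Mrpl38 and Mrpl40, lower under anti-G-CSFR, and for 0 that were higher, against 2.38% and 1.9% of all genes (4.28% either way). Kidney 9 was the lowest of its group for 74 members, and kidney 12 the highest of its group for 68. The same orders were not counted over all genes. The mean member level against sham was 0.32, 0.29 and 0.05 in kidneys 7, 8 and 9, and 0.15, 0.15 and 0.46 in kidneys 10, 11 and 12.

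**Figure D4:**
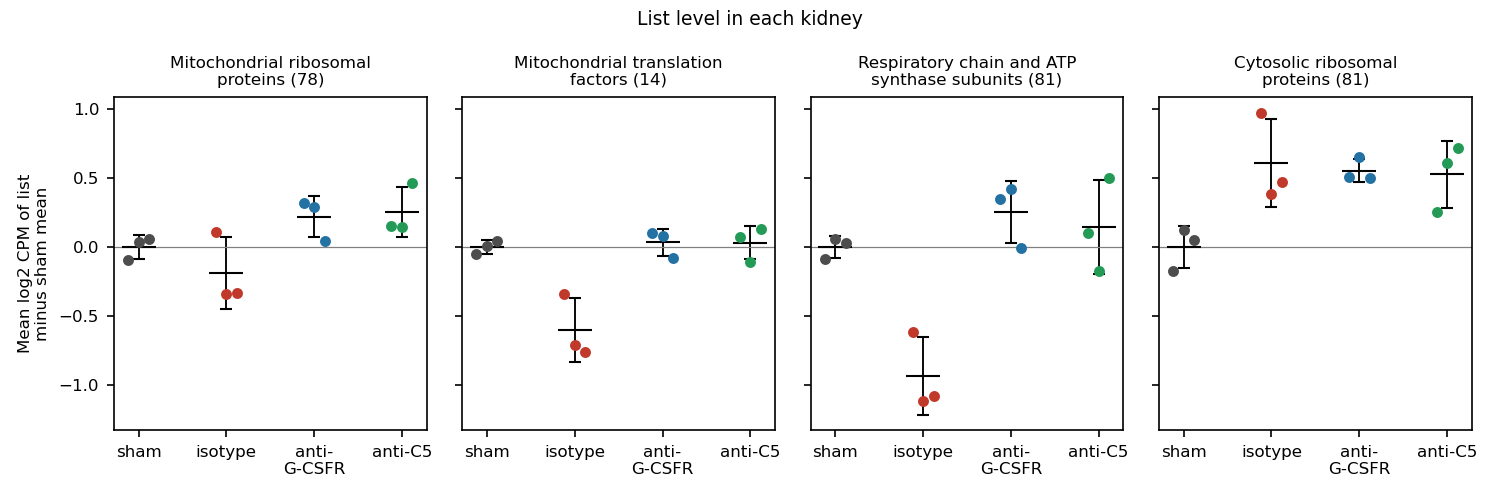
Mean log2 CPM of 4 gene lists in each kidney (points) minus the sham mean, with group mean (line) and ± SD (bar, n = 3). The mitochondrial ribosomal proteins span −0.34 to 0.46, the respiratory chain and ATP synthase subunits −1.12 to 0.50, and all cytosolic ribosomal protein values of injured kidneys lie above 0.

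Other parts of the mitochondrial translation machinery were followed with lists of named genes, which were chosen with earlier results of these data known. Of 5 mitoribosome proteins with other symbols, Dap3 (−0.55 ± 0.12, edgeR adjusted p = 0.0019), Ptcd3 (−0.62 ± 0.17, edgeR adjusted p = 0.0088) and Aurkaip1 (−0.32 ± 0.13, edgeR adjusted p = 0.0496) fell in isotype against sham. In this comparison 30.7% of all genes fell. With upper-quartile factors, or TMM factors without ribosomal protein genes, 2 of the 5 fell, and with library totals 2 fell and 1 rose (median −0.12). Dap3 is a GTP-binding small-subunit protein also known as death-associated protein, and it measured 82.8, 85.7 and 81 CPM in sham and 61.2, 55.0 and 54.0 CPM in isotype kidneys, with no overlap. Chchd1 and Gadd45gip1 did not pass, with 41.1 ± 2.87 and 26.0 ± 2.98 CPM in sham and 49.2 ± 19.1 and 31.3 ± 4.15 CPM in isotype kidneys (SD, n = 3). Dap3, Ptcd3 and Aurkaip1 rose in both antibody groups against isotype, by 0.51 to 0.74.

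Of 14 translation factors, which load tRNA and move the ribosome along the mRNA, 11 fell and 0 rose, with a median of −0.60. The one with the smallest p was Gfm1, the elongation factor that drives translocation, which went from 169, 169 and 182 CPM in sham to 101, 96.4 and 97.2 CPM in isotype kidneys (log2 change −0.82 ± 0.09, edgeR adjusted p = 2.14e-05). Of 20 mitochondrial tRNA synthetases 10 fell and 1 rose (median −0.30), and of 30 mitoribosome assembly factors 9 fell and 3 rose (median −0.20). Genes of mitochondrial DNA transcription and replication fell in 7 of 13 cases and rose in 0 (median −0.40). Of 16 genes of mitochondrial import and mass 3 fell and 1 rose, and of 13 chaperones and proteases 5 fell and 1 rose. Of all genes, 62.8% passed in this comparison, 30.7% lower. The called share was 78.6% for translation factors, 55% for synthetases and 40% for assembly factors. It was 53.8% for transcription and replication, 25% for import and mass and 46.2% for chaperones and proteases. With library totals 8 translation factors fell and 0 rose, 7 synthetases fell and 2 rose, 6 assembly factors fell and 5 rose (median 0.00088), 4 genes of transcription and replication fell and 2 rose, and 2 import and mass genes fell and 3 rose.

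Nuclear genes of the respiratory chain and ATP synthase, whose complexes, apart from complex II, also hold the mitoribosome's products, fell in 73 of 81 cases and rose in none of the 81 in isotype against sham, with a median of −0.88 beside the members' −0.18. Against isotype, 80 of 81 rose under each antibody, with medians of 1.18 and 1.10. Of the cytosolic ribosomal protein genes, 71 of 81 rose and 1 fell in isotype against sham (median 0.65), while 2 rose and 4 fell with anti-G-CSFR and 1 rose and 5 fell with anti-C5, both against isotype. With library totals 27 fell with anti-G-CSFR and 23 with anti-C5. Of all genes, 62.8% passed in isotype against sham, and against isotype 63.5% passed with anti-G-CSFR and 60.3% with anti-C5. The difference between lists was not tested. Transcripts encoded by mitochondrial DNA were not analysed here.

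Among 9 regulators of mitochondrial biogenesis, 4 rose and 3 fell in isotype against sham, against 32.1% and 30.7% of all genes. The smallest p belonged to Pprc1, a coactivator related to PGC-1α, with 16.8, 15.7 and 16.3 CPM in sham and 55.9, 50.1 and 47.8 CPM in isotype kidneys (log2 change 1.66 ± 0.17, edgeR adjusted p = 1.23e-05). The others, named after their values were seen, were Myc (3.56), Gabpb1 (0.47) and Nrf1 (0.30), which rose, and Ppargc1a, the gene of PGC-1α (−1.42), Esrra (−1.39) and Ppargc1b (−1.31), which fell.

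Levels per transcript length, in CPM per kilobase of the median GENCODE transcript, ran in sham kidneys from 6.34 for Mrpl19 to 197 for Mrpl42, with a median of 38.4. In isotype kidneys the highest was Mrpl33, at 194, up from 66.5 in sham. In CPM, not scaled by length, Mrpl12 was the highest member in all 4 groups, with means of 216 in sham, 124 in isotype, 254 in anti-G-CSFR and 261 in anti-C5 kidneys, and Mrpl23 the lowest (13, 12.5, 17.2 and 18). The 39 members with shorter transcripts (440.5 to 1223 bases) and the 39 with longer ones (1226 to 6073 bases) had medians of −0.16 and −0.21 in isotype against sham. Against sham their medians were 0.32 and 0.13 under anti-G-CSFR, and 0.36 and 0.17 under anti-C5.

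The members lie on 17 chromosomes, with 11 of them on chromosome 11. Exons of 26 members overlap another gene, 22 of them a gene on the opposite strand and 5 one on the same strand, and their counts are uncertain because no source used here states the strand setting or the handling of shared reads. Among these are Mrps18b, which shares 638 bases with the antisense Gm16279, and Mrpl33, which shares 107 bases with Gm43809 on its own strand. A protein-coding gene on the opposite strand starts at most 1000 bases upstream of 23 members, or overlaps their start by up to 200 bases. Of 20 such neighbours in the table, 8 fell and 6 rose in isotype against sham, against 30.7% and 32.1% of all genes. Mrpl40 and its neighbour Hira, a histone chaperone gene 175 bases away, both rose (0.42 and 0.38), whereas Ppp1r10, 45 bases from the start of Mrps18b, did not pass the test (−0.15, edgeR adjusted p = 0.157).

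Promoters of 69 members (75 start sites, 250 bases before to 50 after the start, RefSeq GRCm38.p6) were searched on both strands for 3 sets of letters tied to factors of nuclear mitochondrial genes. The GABPA letters CCGGAAG occurred in 34.7% of the member promoters and in 16.6% of 13375 promoters of all genes in the table. The letters GCGCATGC of NRF1 occurred in 10.7% and 4.75%, and AAGATGGC of YY1 in 16% and 4.19%. These matches describe the letters and not binding.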

How the data were processed

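RNA of 12 kidneys was sequenced as single-end reads of 100 bp from strand-specific libraries, per the labels' protocols. Reads were aligned with TopHat2 2.1.0 and Bowtie2 2.2.5 to GRCm38.p4 and counted with featureCounts, per the submitters' processing notes. The authors deposited raw counts for 13124 genes, and every gene has at least 2.01 CPM in 3 libraries. For the strand setting, annotation release and handling of shared reads: not given in the sources used here.

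Groups came from the labels. Counts were tested with edgeR 4.0.16 (R 4.3.3; TMM factors, robust quasi-likelihood, all 12 libraries in 1 fit, 8 residual degrees of freedom, common biological coefficient of variation 16.4%). "Rose" and "fell" mean a BH-adjusted p below 0.05 over all 13124 genes. CPM values are scaled by TMM factors. With 3 kidneys a group, p-values set a group difference against the spread between kidneys. That spread was estimated from all 12 libraries, with information shared across genes. The test was tried on simulated counts for the 3 comparisons with isotype, with 50 genes changed at each fold. It recovered 2% to 6% of 1.3-fold and 18% to 28% of 1.5-fold changes. Of 2-fold changes it recovered 72% to 80%, and of 3-fold changes 86% to 98%. Far more genes passed in the real comparisons, so these shares may not carry over to them. Symbols and promoters came from RefSeq GRCm38.p6 and gene coordinates and lengths from GENCODE vM21.

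The members and lists were chosen with earlier results of these data known. Named members were the 5 largest called rises and falls and the 3 smallest changes in each comparison with isotype as one arm, and members of fixed roles; from each list, the called gene with the smallest p. Not all are printed. Mrps31, Mrps18c, Mrpl18, Mrpl55 and the neighbours were named after their values were seen. Alternatives were library totals, upper-quartile or RLE factors, TMM without ribosomal protein genes, a mean of 5 CPM, a fit without the robust option, DESeq2 1.42.0, limma-voom (limma 3.58.1), only the 6 compared libraries, a test against a 1.2-fold change, each kidney left out, and kidneys 9 and 11 left out.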

Additional observations from a re-analysis of the deposited data

How the results depend on the processing

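No called member changed sign in any alternative. Members called in isotype against sham numbered 29, 11 when tested against a 1.2-fold change and 15 to 49 with 1 kidney left out. Anti-G-CSFR against isotype called 51, 26 with library totals, 31 against a 1.2-fold change and 33 to 63 with 1 kidney left out. Anti-C5 against isotype called 51, 32 against a 1.2-fold change and 31 to 62 with 1 kidney left out. Anti-G-CSFR against sham called 0, and 1 with only the 6 compared libraries. The any-difference test called 46, 27 with library totals and 21 to 65 with 1 kidney left out (21 without kidney 5 or 6, 30 without kidney 8, 65 without kidney 4). The shares of all genes called in these alternatives are not given here, and the cause was not tested.

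The median of members in isotype against sham turned to 0.018 with library totals. That of anti-G-CSFR minus anti-C5 turned to 0.049 without kidney 9, 0.078 without kidney 12 and 0.012 without kidneys 9 and 11 (−0.085 without kidney 11). In isotype against sham, members that did not pass the test there turned as follows with library totals: Mrps17 0.19, Mrpl9 0.19, Mrps12 0.074, Mrpl45 0.11, Mrpl58 0.093 and Mrps27 0.094. In the same comparison, with upper-quartile factors Mrps17 was at 0.011 and Mrpl9 at 0.010. With 1 kidney left out Mrps17 ran from −0.17 to 0.081, Mrpl9 from −0.047 to 0.025, Mrpl3 from −0.18 to 0.14 and Mrps18a from −0.13 to 0.15. No paired analysis was possible because the kidneys are numbered 1 to 12 and no number occurs in 2 groups.

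With 3 kidneys a group, member changes in isotype against sham had SEs of 0.09 (Mrpl38) to 0.27 (Mrps21) on the log2 scale, which limits how small a change could be detected.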
